A study of Mus musculus with 12 samples.

Results

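The unfolded protein response of the liver was followed through 10 genes: the stress sensors Eif2ak3, Ern1 and Atf6, the transcription factor Xbp1, the chaperones and chaperone partners Hspa5, Dnajb9, Manf, Sdf2l1 and Creld2, and Herpud1, a protein of the degradation machinery. The genes were taken by name. Each was represented by its brightest probeset among those annotated to that single gene, and all 10 were among the 11899 genes tested. Of the 24 probesets annotated to these genes, 20 passed the filter on low levels. Levels were Affymetrix array intensities on the log2 scale, so that a difference of 1 is a doubling of the measured signal. The mice were C57BL/6 males from Jackson Labs, with free access to food and water under a light and dark cycle of 12 hours each. The 6 penicillin mice drank water with a low dose of penicillin, begun after weaning, and the 6 control mice received no antibiotic. Livers were taken after 7 weeks of intervention, and each gave 1 array. The sources used here give no dose, age in weeks, cage or hour of collection.

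The endoplasmic reticulum folds the proteins that a cell secretes, and hepatocytes, which make most plasma proteins, carry a heavy folding load. When unfolded protein builds up, 3 membrane sensors respond. PERK, the product of Eif2ak3, phosphorylates the initiation factor eIF2-alpha, which slows translation and favours synthesis of the factor ATF4. IRE1-alpha, the product of Ern1, is a kinase and ribonuclease that removes a short intron from Xbp1 mRNA, so that the active factor is made. ATF6 moves to the Golgi, where proteases release a fragment that enters the nucleus. XBP1 and the ATF6 fragment bind promoter elements that end in CCACG and raise the transcription of chaperones, of BiP above all. The arrays measured transcript level. Splicing of Xbp1, phosphorylation and cleavage of the sensors were not measured.

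Promoters are shown for the 3 genes whose window held an element of ATF6 and XBP1, and for 1 gene whose window held none. RefSeq windows from 250 bases before to 50 bases after the annotated start (assembly GRCm38.p6) were matched for 8 of the 10 genes, all except Atf6 and Manf. They were searched on both strands for the endoplasmic reticulum stress element, which is CCAAT, 9 free bases and CCACG, and for its second form, which is ATTGG, 1 free base and CCACG. Hspa5 (chr2:34771840-34772139, plus strand) held the first element from base -65 to base -47, counted from the start. Creld2 (chr15:88819396-88819695, plus strand) held it in reverse from base -126 to base -108, so that it reads CGTGG, 9 free bases and ATTGG. Herpud1 (chr8:94386179-94386478, plus strand) held the second form from base -52 to base -42. Eif2ak3 (chr6:70844265-70844564, plus strand) held neither form and no CCACG, and is given for contrast because its transcript had the smallest p-value of the 10. Capitals mark the fixed bases of each element and any further CCACG or its reverse CGTGG.
Hspa5: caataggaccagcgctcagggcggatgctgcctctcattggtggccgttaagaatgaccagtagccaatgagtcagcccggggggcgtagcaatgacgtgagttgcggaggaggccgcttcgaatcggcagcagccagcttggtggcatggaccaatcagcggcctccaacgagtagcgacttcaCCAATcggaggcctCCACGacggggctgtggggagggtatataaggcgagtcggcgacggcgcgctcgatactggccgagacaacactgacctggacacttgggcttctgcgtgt
Creld2: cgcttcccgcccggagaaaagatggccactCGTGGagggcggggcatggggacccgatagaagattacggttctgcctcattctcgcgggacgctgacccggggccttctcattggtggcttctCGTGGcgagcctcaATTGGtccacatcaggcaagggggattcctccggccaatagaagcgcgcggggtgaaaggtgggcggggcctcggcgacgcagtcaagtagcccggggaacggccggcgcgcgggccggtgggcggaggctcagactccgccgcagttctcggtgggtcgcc
Herpud1: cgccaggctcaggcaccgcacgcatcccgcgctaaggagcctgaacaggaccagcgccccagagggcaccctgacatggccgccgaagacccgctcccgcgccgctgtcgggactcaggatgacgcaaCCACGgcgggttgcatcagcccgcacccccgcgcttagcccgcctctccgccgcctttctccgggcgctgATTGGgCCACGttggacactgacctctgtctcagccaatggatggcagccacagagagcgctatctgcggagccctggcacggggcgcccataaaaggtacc
Eif2ak3: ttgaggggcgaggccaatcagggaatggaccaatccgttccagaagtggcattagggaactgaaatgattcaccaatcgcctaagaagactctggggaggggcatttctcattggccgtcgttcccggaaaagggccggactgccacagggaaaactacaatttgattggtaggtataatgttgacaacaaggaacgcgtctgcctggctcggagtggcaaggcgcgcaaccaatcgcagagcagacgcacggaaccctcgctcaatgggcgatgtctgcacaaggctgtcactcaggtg
The first element was present in 2 of the 8 windows, and in 0.119% of all 32851 promoter windows of the table. The second form was present in 1 of the 8, and in 0.0365% of all windows. CCACG, which is part of both elements, was present in 6 of the 8 and in 32.8% of all windows, with 3 reverse copies in Sdf2l1 and 2 forward copies in Dnajb9. The unfolded protein response element TGACGTGG (0.676% of all windows) and the amino acid response element TGATGCAAT (0.192%) matched none of the 8. A match is a description of these letters and does not show binding.

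All 10 genes were lower on average in penicillin livers than in control livers, by a median of 0.49 on the log2 scale, while the median difference over all genes tested was 0.01. None of the 10 passed the test. limma called 0 of 11899 genes, or 0% of them, at an adjusted p of 0.05, and the smallest adjusted p of any gene was 0.265. At an unadjusted p under 0.05, without correction, limma listed 950 genes. Of the 10 genes, 6 were lower at an unadjusted p under 0.05, where 3.66% of all genes were. Of all genes tested 47.2% were lower with penicillin. The 6 penicillin livers lay wholly below the 6 control livers for 0 of the 10 genes, against 0.151% of all genes. These genes were chosen with earlier results of the same arrays known, so the counts describe them and are not independent support. In whole liver, fewer cells of a type and less RNA per cell cannot be told apart.

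**Figure D1:**
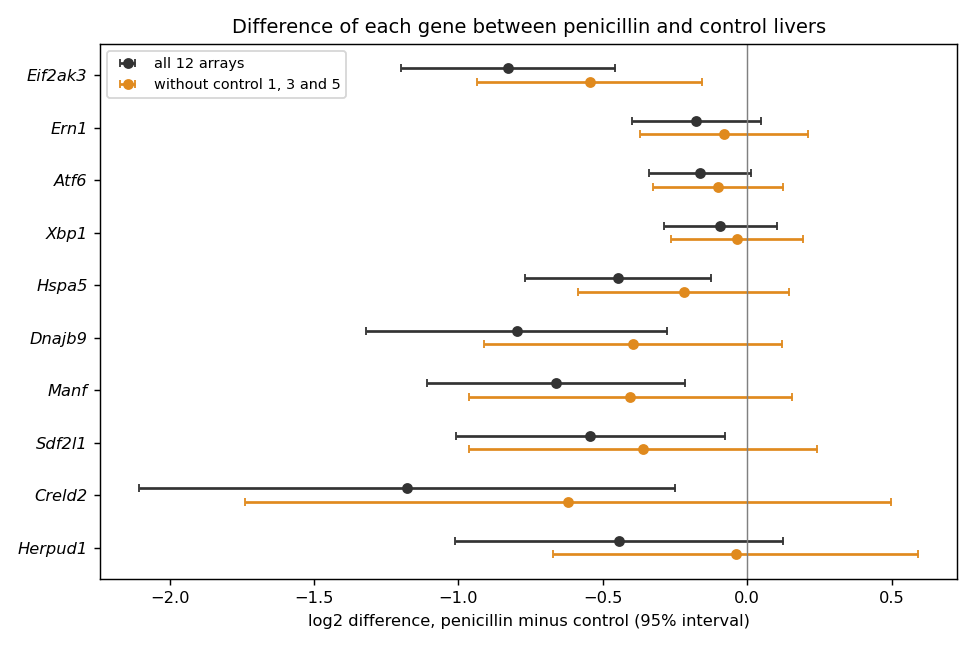
Log2 difference of each gene, penicillin minus control, with its 95% interval from limma, for all 12 arrays (dark) and without control 1, control 3 and control 5 (orange). All 20 points lie left of 0. Of the dark intervals 6 end below 0, and of the orange ones only that of Eif2ak3 does.

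Among the sensors, Eif2ak3 stood out. Its probeset 1449278_at ran from 7.36 to 7.93 in penicillin livers, with a median of 7.59, and from 7.77 to 8.86 in control livers, with a median of 8.55. The groups overlapped through 1 liver on each side: penicillin 3, at 7.93, was above control 4, at 7.77. Eif2ak3 averaged 7.60 ± 0.22 with penicillin and 8.43 ± 0.41 in controls (SD, n = 6 each), a 1.78-fold lower level. The log2 difference was -0.83 (SE 0.17, 95% interval -1.20 to -0.46, adjusted p = 0.276), which ranked 14 by p among the 11899 genes. Its other 2 probesets averaged 3.74 and 3.27, under the filter, where a level cannot be told from background.

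Ern1, Atf6 and Xbp1 had the 3 smallest differences of the 10 genes on their brightest probesets. Ern1, on probeset 1437119_at, ran from 9.85 to 10.09 in penicillin livers (median 10.02) and from 9.73 to 10.44 in control livers (median 10.25), a log2 difference of -0.18 (SE 0.10, adjusted p = 0.717). Control 6 was the lowest of all 12 livers and control 4 the highest, so the penicillin livers lay inside the control range. Ern1 also varied more between control livers, with an SD of 0.08 with penicillin and 0.26 in controls. The ratio of control to penicillin SD, 3.07, was reached by 2.95% of all genes, and its median over all genes was 1.07. The other 2 Ern1 probesets that passed the filter gave -0.44 and -0.12, and the first of these was at 0.11 without control 1, control 3 and control 5. A dim further probeset of Ern1 gave a positive difference, of 0.18, at a mean level of 3.96, under the filter. It was the 1 of the 24 probesets with a positive sign.

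Atf6, on probeset 1435444_at, ran from 8.54 to 8.83 in penicillin livers (median 8.80) and from 8.62 to 9.08 in control livers (median 8.96). In 5 of the 6 control livers it was above every penicillin liver, and control 2 was the exception. Its log2 difference was -0.16 (SE 0.08, adjusted p = 0.659), and 2 dimmer Atf6 probesets gave -0.18 and -0.20.

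Xbp1, on probeset 1437223_s_at, whose suffix marks probes shared between transcripts, ran from 12.36 to 12.65 in penicillin livers (median 12.50) and from 12.34 to 12.81 in control livers (median 12.59). The groups overlapped over the whole penicillin range. The log2 difference was -0.09 (SE 0.09, 95% interval -0.29 to 0.10, adjusted p = 0.858), the smallest of the 10, and the 4 Xbp1 probesets gave -0.06 to -0.15. Among penicillin livers Xbp1 was highest in penicillin 5, penicillin 6 and penicillin 1, at 12.65, 12.54 and 12.53. Those 3 livers also had the highest level of Dbp, a transcription factor of the clock output named after its values were seen, at 12.05, 12.05 and 11.96, against 7.80 to 9.01 in the other 3 penicillin livers. Control 6, with Xbp1 at 12.79, had Dbp at 11.96. Control 3 and control 1, with Xbp1 at 12.81 and 12.71, had Dbp at 10.68 and 10.62. In control 2, control 4 and control 5 Dbp was at 6.44 to 8.18. Without control 6 and penicillin 1, 5 and 6 the log2 difference of Xbp1 was -0.13 (adjusted p = 0.809).

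Hspa5 encodes BiP, the main chaperone of the endoplasmic reticulum, which also holds the sensors inactive. On probeset 1416064_a_at it ran from 12.65 to 13.37 in penicillin livers (median 13.00) and from 12.92 to 13.74 in control livers (median 13.45). The lowest livers were penicillin 5 and penicillin 6, and the 3 highest were control 1, control 3 and control 5, at 13.54 to 13.74. Hspa5 averaged 12.97 ± 0.27 with penicillin and 13.42 ± 0.30 in controls (SD, n = 6 each), a 1.36-fold lower level. This was a log2 difference of -0.45 (SE 0.15, adjusted p = 0.567). Its second bright probeset gave -0.58 and its dimmest -0.19, so the sign was shared and the size was not.

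Dnajb9 encodes ERdj4, a J-domain partner of BiP. It had 1 probeset, which ran from 10.48 to 11.12 in penicillin livers (median 10.64) and from 10.58 to 12.13 in control livers (median 11.66). In 4 control livers Dnajb9 was above every penicillin liver, and control 2 and control 4, at 10.58 and 10.98, were within the penicillin range. It averaged 10.72 ± 0.23 with penicillin and 11.52 ± 0.62 in controls (SD, n = 6 each), a log2 difference of -0.80 (SE 0.24, 95% interval -1.32 to -0.28, adjusted p = 0.519). The spread was 2.69 times as large among controls as with penicillin.

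Manf encodes a small protein of the endoplasmic reticulum that binds BiP and can be secreted. It ran from 10.92 to 11.99 in penicillin livers (median 11.40) and from 11.29 to 12.33 in control livers (median 12.19). In 5 control livers Manf was at 12.03 or more, above every penicillin liver, and control 2 lay at 11.29. The log2 difference was -0.66 (SE 0.21, adjusted p = 0.525). Sdf2l1, a partner of BiP and of its J-domain cochaperones, had the same layout. It ran from 9.14 to 9.97 in penicillin livers (median 9.54) and from 9.22 to 10.60 in control livers (median 10.14), with control 2 again the lowest control. Its log2 difference was -0.54 (SE 0.22, adjusted p = 0.585).

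Creld2 encodes a protein with disulphide isomerase activity that is induced by stress of the endoplasmic reticulum. It had the widest range of the 10 genes, 3.06 on the log2 scale over the 12 livers. It ran from 8.21 to 10.41 in penicillin livers (median 9.29) and from 8.79 to 11.27 in control livers (median 10.63). Penicillin 3, at 10.41, was above control 4, at 10.22, and control 2 was within the penicillin range. Creld2 averaged 9.27 ± 0.79 with penicillin and 10.45 ± 0.90 in controls (SD, n = 6 each), 2.26-fold lower. The log2 difference of -1.18 was the largest of the 10, and so was its error (SE 0.43, 95% interval -2.11 to -0.25, adjusted p = 0.570).

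Herpud1 encodes a membrane protein that assembles the ubiquitin ligase complex of endoplasmic reticulum-associated degradation. On probeset 1448185_at it ran from 12.01 to 13.10 in penicillin livers (median 12.48) and from 11.95 to 13.53 in control livers (median 13.13). The penicillin range lay inside the control range, and control 2 was the lowest of all 12 livers. The log2 difference was -0.44 (SE 0.26, 95% interval -1.01 to 0.13, adjusted p = 0.722), and the second probeset gave -0.43.

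**Figure D2:**
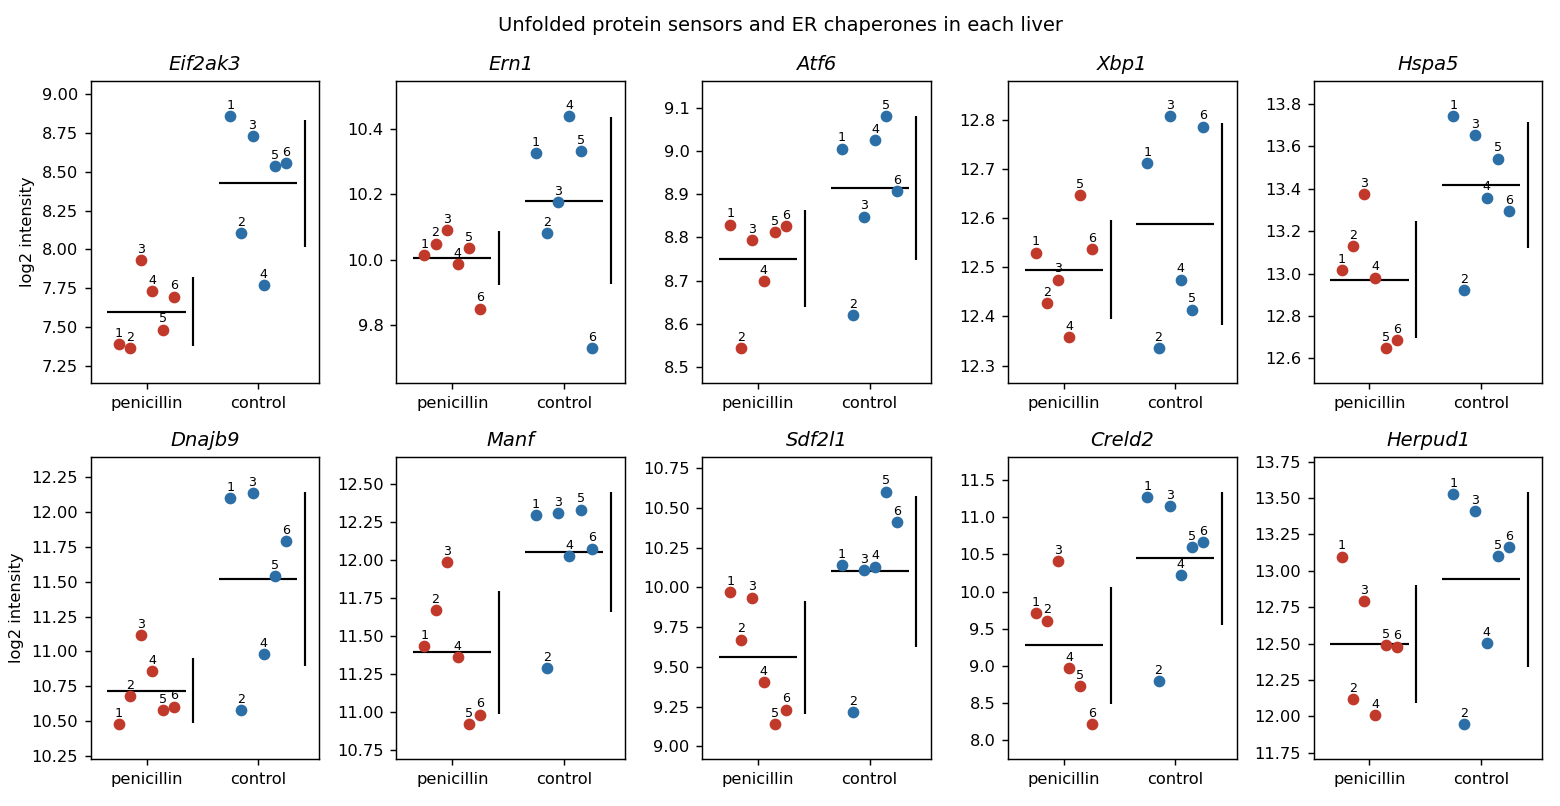
Log2 intensity of the 10 genes in each liver, 6 penicillin (red) and 6 control (blue), on an axis fitted to each gene. Points carry the replicate number, horizontal bars are group means and vertical bars are 1 SD on each side. Control 2 is the lowest control liver for 8 of the 10 genes, and control 1, control 3 and control 5 are among the highest for most.

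The control livers were not alike. The mean of the 10 genes, each taken relative to its own mean over 12 livers, was -0.48 to 0.10 in penicillin livers. In control livers it was 0.60, 0.54 and 0.41 in control 1, control 3 and control 5, 0.34 in control 6, 0.10 in control 4 and -0.40 in control 2. The highest of the 12 livers was control 1, control 3 or control 5 for 9 of the 10 genes, and control 4 for Ern1. Among penicillin livers, penicillin 3 was the highest for 6 of the 10 genes. Control 1, control 3 and control 5 are also the livers with high immediate early genes, which many stimuli induce within minutes. Fos, an immediate early transcription factor, was at 5.84 to 6.79 in penicillin livers, at 11.29, 11.33 and 11.85 in those 3 control livers, and at 6.53 to 7.46 in the other control livers. Control 1 and control 3 were also the most similar pair of all arrays, with a median absolute difference of 0.10 over genes, beside 0.19 for the most distant pair.

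Without control 1, control 3 and control 5 all 10 genes stayed lower with penicillin, and every difference was smaller. The median difference of the 10 genes was -0.29, against -0.01 over all genes, of which 53.1% were lower. Only Eif2ak3 kept an unadjusted p under 0.05 in the lower direction, as 2.25% of all genes did, with a log2 difference of -0.55 (95% interval -0.94 to -0.16, adjusted p = 0.996). With 3 control livers left, limma again called 0 genes, and 488 had an unadjusted p under 0.05. The penicillin livers lay wholly below the 3 remaining control livers for 0 of the 10 genes, against 0.975% of all genes. Creld2 was at -0.62, Manf and Dnajb9 at -0.40, Sdf2l1 at -0.36 and Hspa5 at -0.22 on the log2 scale, all with intervals that included 0. Herpud1 was at -0.04 (95% interval -0.67 to 0.59), 11.2 times closer to 0 than with all arrays. Ern1, Atf6 and Xbp1 were at -0.08, -0.10 and -0.04. Of the 20 probesets that passed the filter, 20 were lower with all arrays and 18 without those 3 livers.

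The mean level of the immediate early genes was then used as a covariate in place of leaving livers out. With each gene taken relative to its own mean, it was 2.29, 2.31 and 1.54 in control 1, control 3 and control 5. In every other liver it was -0.89 to -0.31. The covariate thus largely marked the livers left out above, so similar values are not a separate check. With the covariate, the values were close to those without control 1, control 3 and control 5. Eif2ak3 was at -0.49 (SE 0.16, adjusted p = 0.981), Creld2 at -0.61, Sdf2l1 and Manf at -0.42, Dnajb9 at -0.34, Hspa5 at -0.21 and Herpud1 at -0.03 on the log2 scale. Without control 6 and the 3 penicillin livers with high Dbp, Eif2ak3 was at -0.73 and Herpud1 at -0.59, while Manf was at -0.38 and Creld2 at -0.74. Control 1 and control 3, with Dbp at 10.62 and 10.68, stayed in that comparison, so it did not even out Dbp between the groups. All 10 genes were lower in that comparison too, and none passed.

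**Figure D3:**
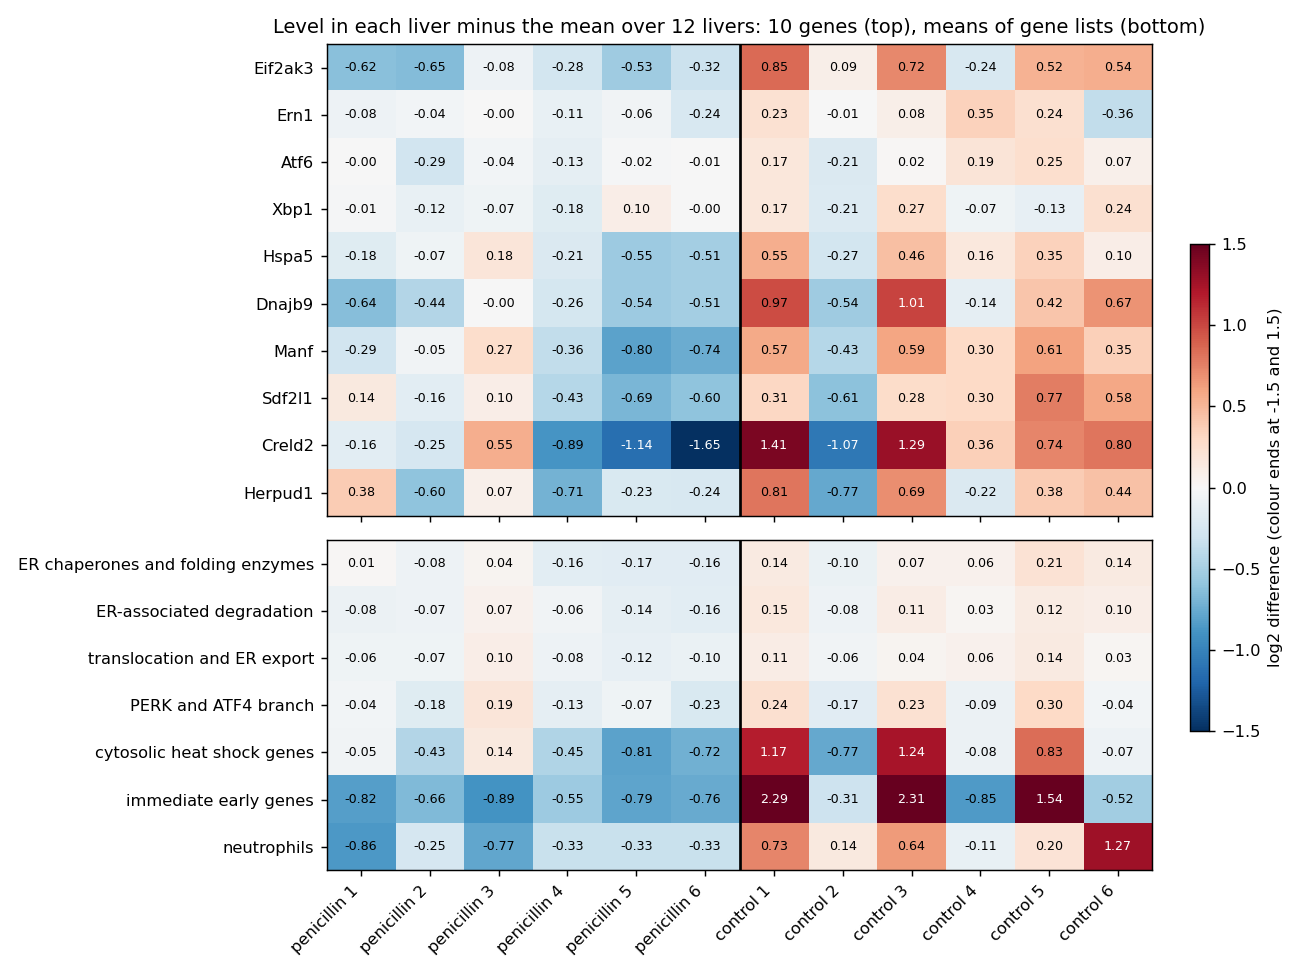
Level of each of the 10 genes (top) and mean of 7 gene lists (bottom) in each liver, minus the mean over 12 livers, on the log2 scale, with penicillin livers left of the line and control livers right of it. Colours end at -1.5 and 1.5. Control 1, control 3 and control 5 are high for most of the 10 genes, for heat shock genes and for immediate early genes. Control 2 is the lowest control liver for 8 of the 10 genes, all but Eif2ak3 and Ern1, and is low for heat shock genes. The list labelled cytosolic heat shock genes also holds Hspd1 and Hspe1, which encode mitochondrial chaperones.

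Over all 12 livers, among which control 1, control 3 and control 5 were high together, Pearson r between pairs of the 10 genes had a median of 0.67, and 44 of 45 pairs were positive. The pairs were less alike in the smaller sets of livers. Across the 9 livers without control 1, control 3 and control 5, r ran from -0.50 to 0.99 with a median of 0.40, and 41 of 45 pairs were positive. Within the 6 penicillin livers r ran from -0.58 to 0.997 with a median of 0.30, and 29 of 45 pairs were positive. These values are descriptions over few livers that share 1 normalization. Hspa5 and Manf were nearly parallel, with r of 0.99 over the 9 livers and 0.997 within penicillin livers. Creld2 followed both, with r of 0.93 to 0.95 over the same sets of livers, and Sdf2l1 followed Creld2 at 0.94 and 0.90.

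A second pair was Eif2ak3 with Dnajb9, at r of 0.80 over the 9 livers and 0.83 within penicillin livers. Eif2ak3 was at 0.40 and 0.32 with Hspa5 in the same sets, so within penicillin livers its level followed Dnajb9 more closely than BiP. Xbp1 ran against the chaperones within penicillin livers, with r of -0.58 with Hspa5 and -0.56 with Manf. Herpud1 was at r of 0.16 with Hspa5 there, and at 0.71 with Atf6 and 0.52 with Xbp1. Over the 9 livers Xbp1 with Hspa5 was at 0.02. These pairs were picked out after their values were seen.

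**Figure D4:**
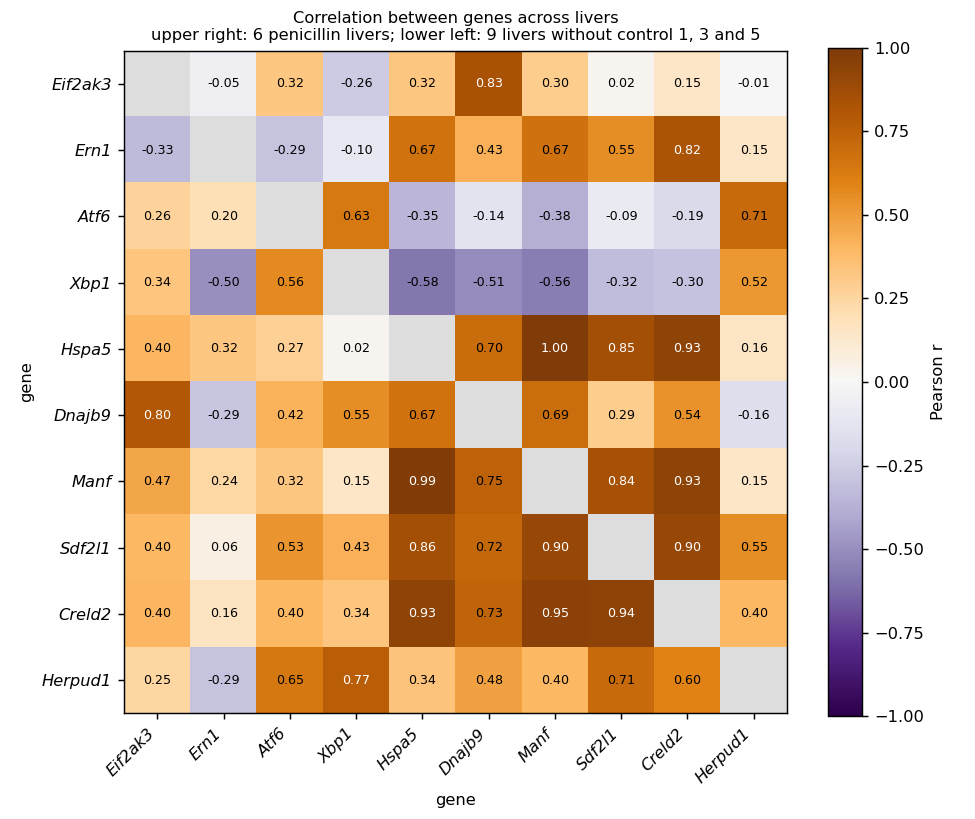
Pearson r between the 10 genes across the 6 penicillin livers (upper right) and across the 9 livers without control 1, control 3 and control 5 (lower left). Hspa5, Manf, Sdf2l1 and Creld2 form a block with values of 0.84 or more on both sides, while Xbp1 is negative with all 4 among penicillin livers.

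Other genes of the pathway were counted in lists drawn up by function. Among chaperones and folding enzymes of the endoplasmic reticulum, 22 of 23 were lower with penicillin, with a median difference of -0.13, and 0 passed. Hsp90b1, the chaperone GRP94, averaged 12.41 ± 0.06 with penicillin and 12.60 ± 0.19 in controls (SD, n = 6 each), a log2 difference of -0.19 (adjusted p = 0.594). Txndc11, a thioredoxin-domain protein, differed by -0.49 (adjusted p = 0.594), and by -0.13 when control 1, control 3 and control 5 were left out. At an unadjusted limma p under 0.05 there were 4 lower genes of the 23, and 1 without control 1, control 3 and control 5. Of all genes tested, 3.66% and 2.25% were lower at that threshold. For the 5 pathway lists that follow, in order, the count was 6 of 20, 5 of 22, 2 of 17, 2 of 13 and 0 of 5. Without those livers it was 1, 0, 0, 0 and 2.

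Of 20 measured genes of endoplasmic reticulum-associated degradation, 17 were lower, with a median difference of -0.09, and 0 passed. Selenos, a selenoprotein of the complex that pulls proteins out of the membrane, averaged 11.48 ± 0.13 with penicillin and 11.81 ± 0.14 in controls (SD, n = 6 each), a log2 difference of -0.32 (adjusted p = 0.346). Syvn1, the ubiquitin ligase HRD1 that Herpud1 binds, differed by -0.77 (SE 0.22, adjusted p = 0.479). Leaving out control 1, control 3 and control 5 gave -0.37 for Syvn1 and -0.21 for Selenos. Of 22 genes of translocation into and export from the reticulum, 20 were lower, with a median of -0.11, and 0 passed. Sec61a1, the channel subunit, differed by -0.21 (adjusted p = 0.567), or -0.13 with those livers left out, and Sar1b, a GTPase that forms export vesicles, was on the other side at 0.16 (adjusted p = 0.546).

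Of 17 measured genes of the branch downstream of PERK, 13 were lower and 4 higher, with a median of -0.07, and 0 passed. Atf4 averaged 10.48 ± 0.22 with penicillin and 10.94 ± 0.43 in controls (SD, n = 6 each), a log2 difference of -0.45 (adjusted p = 0.584), and of -0.14 when control 1, control 3 and control 5 were left out. Ddit3, which encodes the factor CHOP, differed by -1.20 (SE 0.51, adjusted p = 0.594). The same omission gave -0.02 for Ddit3. In that smaller comparison 10 of the 17 were lower, with a median of -0.03. Translation of Atf4, which PERK controls, was not measured.

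Of 13 related sensors, proteases that cut ATF6 and other kinases of eIF2-alpha, 7 were lower and 6 higher, with a median of -0.02, and 0 passed. Creb3l2, a membrane-bound factor related to ATF6, differed by -0.67 (SE 0.19, adjusted p = 0.464), and Wfs1, a membrane protein of the reticulum, by -0.24 (adjusted p = 0.619). Of 5 measured transcripts that IRE1 cuts in mouse fibroblasts, 5 were lower, with a median of -0.13, and 0 passed. By liver, the mean of this list was highest in control 2 (0.43) and lowest in penicillin 1 (-0.53). Stellate cell markers, a list that also holds Pdgfrb, were highest and lowest in the same livers (0.45 and -0.44). Cutting by IRE1 was not measured. Without control 1, control 3 and control 5 the median was -0.35. The smallest p-values with all arrays were those of Pmp22, a myelin protein, at -0.15 (adjusted p = 0.681), and Pdgfrb, a receptor of stellate cells, at -0.26 (adjusted p = 0.832), which was at -0.54 with those livers left out.

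Likeness to the mean of the 10 genes over the 12 livers was measured by Pearson r, with no test. The closest 5 of 11889 genes were the inducible heat shock protein gene Hspa1b (0.957), the HSP110 gene Hsph1 (0.956), the adaptor Nck1 (0.955), Syvn1 (0.954) and the zinc finger gene Zfp9 (0.952). Over the 9 livers without control 1, control 3 and control 5 the same genes were at 0.88 to 0.91. There Hspa1b ranked 16 and Hsph1 ranked 24. The closest 3 genes over those 9 livers were Spcs3 of the translocation list (0.937), Trabd (0.935) and Hsp90b1 (0.931). Among the heat shock genes measured the median r was 0.90 over 12 livers, 0.81 over the 9 and 0.90 within the 6 penicillin livers. For immediate early genes it was 0.75 over 12 livers, and -0.15 over the 9 and -0.15 within penicillin livers. Chaperones and folding enzymes of the endoplasmic reticulum had a median r of 0.69, 0.66 and 0.63 over the 12, 9 and 6 livers. Genes of translocation and export were at 0.64, 0.57 and 0.73, and those of degradation at 0.46, 0.34 and 0.57. The median over all other genes was -0.07 over 12 livers.

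As lists, 11 of 11 heat shock genes were lower with penicillin, with a median of -0.70, and the smallest p-values were those of Hspa1b at -1.41 and Hsph1 at -1.08 (adjusted p = 0.584 and 0.588). Leaving out control 1, control 3 and control 5 left 7 of the 11 lower, with a median of -0.04, Hspa1b at -0.36 and Hsph1 at -0.31. Of 14 immediate early genes 14 were lower, with a median of -1.26, and the smallest p-values were those of Klf6, a transcription factor, at -0.75 and Fos at -3.03 (adjusted p = 0.265 and 0.511). Without those livers 10 of the 14 were lower, with a median of -0.18, Klf6 at -0.43 and Fos at -0.77. Of 12 clock genes 6 were lower, with a median of 0.06. Per3, a clock repressor, was at 0.90, and Clock, an activator, at -0.31 (adjusted p = 0.731 and 0.837). The part of immediate early and clock genes in the differences of the 10 genes was examined only through the comparisons above. Those left livers out, or used the mean of the immediate early genes as a covariate, which largely marked control 1, control 3 and control 5. No covariate was made from heat shock genes, whose part was not tested on its own.

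Markers of cell types were read beside these values. Hepatocyte markers differed by a median of -0.02, and 10 of 12 listed were measured at a mean level of 14.10 to 14.23 in penicillin livers and 14.09 to 14.29 in control livers, near the top of the scale, as the liver label requires. Neutrophil markers were lower with penicillin in 4 of 4 measured of 10 listed, and their mean level was 4.84 to 5.45 in penicillin livers and 5.59 to 6.97 in control livers. S100a8 and S100a9, which lead that list and were named after their values were seen, were highest in control 6, at 8.06 and 8.44. The granule genes Mpo, Elane, Camp and Ngp were under the filter, and Ly6g and Retnlg had no usable probeset here. Markers of bile duct cells were lower in 5 of 5, at 4.87 to 5.36 in penicillin livers and 5.33 to 5.58 in control livers. These levels are near the filter limit of 4.73. Without control 1, control 3 and control 5, 4 of the 5 bile duct markers and 4 of 4 neutrophil markers were lower. The part of these cells in the differences of the 10 genes was not tested. Plasma and B cells also carry a large endoplasmic reticulum, and 5 of their 10 listed markers were measured. Of these 5, 4 were higher with penicillin, with a median of 0.19, but the 1 with an unadjusted limma p under 0.05 was lower. Without control 1, control 3 and control 5, 3 of the 5 were higher, with a median of 0.11. Markers of pancreatic acinar cells (3 measured) differed by a median of -0.02, those of Kupffer cells by -0.07 (11 measured), T and NK cells by 0.08 (6), endothelial cells by -0.05 (10) and stellate cells by -0.19 (9). Without control 1, control 3 and control 5 these medians were 0.04, -0.18, 0.09, -0.11 and -0.12, in the same order. In that comparison 11 of 11 Kupffer cell markers and 9 of 9 stellate cell markers were lower. Signal differences between the ends of Gapdh, a measure of RNA integrity, were -0.15 to -0.02 in penicillin livers and -0.17 to 0.01 in control livers. For beta-actin they were 0.88 to 1.02 and 0.86 to 1.01. Control 2 was the highest control liver in both, and penicillin 3 was above it for beta-actin.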

How the data were processed

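RNA of 12 livers was labelled with a 3′ in vitro transcription kit, per the labels' protocols. The authors deposited probeset intensities made with RMA, per the submitters' processing notes, and the sources used here give no software version or settings. RMA equalizes the distribution of arrays and would hide a shift common to most genes. The deposited intensities were linear, and log2 was taken here. Of 45037 probesets other than 64 controls, 34945 had 1 gene in the platform annotation, 932 several and 9160 none there. Symbols were updated through a RefSeq table of GRCm38.p6. Probesets with a mean under the median (4.73) were left out, and the brightest per gene was kept. Levels of different probesets cannot be compared, and the number of arrays limits precision.

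Penicillin minus control was fitted over all genes with limma 3.58.1 in R 4.3.3 (empirical Bayes, two-sided, Benjamini-Hochberg adjustment). Samples of a group are separate mice by their labels, but shared cages are not given. The genes and lists were chosen with earlier results of these data known. Named genes were the 10 studied, the 2 with the smallest p in each pathway and context list (immediate early, heat shock and clock genes), and the 5 most like the mean of the 10. Alternatives covered filters, normalization, probeset choice, variance priors, array weights, the replicate block, covariates and omitted arrays. The fit was tested on simulated data.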

Additional observations from a re-analysis of the deposited data

Results flagged for a closer look

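In control 2, Manf was at 11.29 on the log2 scale, far below the next control liver at 12.03, and Sdf2l1 was at 9.22, far below the next at 10.11. The gap was 0.705 of the whole control range for Manf and 0.644 for Sdf2l1, above the limit that Dixon's test sets for 6 samples. Both come from the same liver. That liver also had the highest signal difference between the ends of Gapdh, at 0.01, and a link to its low values was not tested. A total of 22 groups of 6 were examined (the 10 genes and their mean, in each group), and chance alone gives such a gap in about 1 in 20 groups.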

How the results depend on the processing

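Under all 25 alternatives, limma called 0 genes at an adjusted p of 0.05, and each of the 10 genes kept its sign, in 250 of 250 values. The alternatives on filters, variance priors and the replicate block left every difference of the 10 genes as in the main fit. Their signs were therefore bound to stay, and the count of 250 overstates how far the signs were tried. The median difference of the 10 genes ran from -0.68 without control 2 to -0.43 without control 5 when single livers were left out. It was -0.60 with array weights, -0.37 without control 6 and penicillin 1, 5 and 6, -0.29 without control 1, 3 and 5, and -0.27 with the immediate early covariate. The smallest adjusted p of the 10 under any alternative was 0.121, for Eif2ak3 with array weights. Single livers moved 2 genes by over 1.5 times: Xbp1 was at -0.05 without control 3 or control 6 and at -0.14 without control 2, and Ern1 at -0.27 without control 6.

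Penicillin and control livers share replicate numbers. Livers of the same number did not deviate together in all pairs (r from -0.26 to 0.39, above 0.1 in 4 of 6), and 2 of 6 penicillin livers correlated best with the control of their own number, so the numbers were not taken as pairs. With the replicate block 0 genes passed, with a smallest adjusted p of 0.0732 over all genes, and Eif2ak3 and Herpud1 were both at adjusted p = 0.354. The block changed the errors unevenly. The SE of Herpud1 was 0.11 with the block and 0.26 in the main fit, while that of Sdf2l1 was 0.23 and 0.22. Signal close to background limits the dim probesets, and the files hold no detection calls.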
